A study of Mus musculus with 84 samples.

Results

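Sva and Gt(ROSA)26Sor are 2 of the 41391 rows of a gene-level count table that covers 84 RNA-seq libraries of sorted mouse blood progenitors. They were chosen because earlier results of these counts showed both above control in mice carrying a tetracycline-regulated MLL-ENL transgene, and they are set here beside the row that counts the transgene itself, called MLL-ENL_fusion_gene, over all 22 groups. Their difference between MLL-ENL and control is therefore described with no test. The tests below concern what the choice did not use, namely the genes around each locus and the level of Gt(ROSA)26Sor between control groups. The working name of the pair places both near transgene alleles, but the sources used here do not give the positions of the alleles in these mice, so the genes are called by their names.

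Sva encodes seminal vesicle antigen, a secreted protein of the seminal fluid that is related to the prolactin-induced protein Pip and to the seminal vesicle antigen-like genes Sval1, Sval2 and Sval3. It has no known part in blood formation. Gt(ROSA)26Sor is the non-coding transcript of the Rosa26 locus, which was found in a gene-trap screen, is transcribed in nearly all mouse tissues and is widely used to place transgenes, among them the activators of tetracycline-regulated systems. In such systems an activator protein drives the transgene from a tetracycline-responsive promoter, and doxycycline sets whether it can do so. MLL-ENL is a leukaemia-causing fusion of the chromatin regulator KMT2A (MLL) with the elongation factor MLLT1 (ENL), and its fusion row is the sum of the reads on human KMT2A and human MLLT1.

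Committed haematopoietic progenitor cells (HPC), pre-granulocyte-monocyte progenitors (pGM) and granulocyte-monocyte progenitors (GMP) came from the liver of newborn mice (postnatal day 0, P0) and from the bone marrow of mice aged 10 weeks. The labels give these mice as fetal induction with no doxycycline. HPC were also taken from bone marrow at 6 and 12 months, in mice labelled adult induction with 8 weeks of doxycycline. At 10 weeks another set of 3 mice was labelled MLL-ENL (x2). The sources used here do not say what x2 stands for, and the 4 control mice whose titles have the same form were taken as its controls. Every control is labelled wild type and every other library MLL-ENL, with the same induction and doxycycline label as its control. Each group has 4 libraries except P0 pGM control and the MLL-ENL (x2) groups, with 3. The sources used here name no promoter for the activator, no number of founders and no sort gates. Nothing in the labels says that the libraries of a group come from separate litters, so the p-values measure the spread between these libraries, which may in part be technical.

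The libraries held 7619548 to 29470074 counts. Levels are in CPM, the count of a gene scaled to a library of 1000000 counts, with library sizes adjusted by the trimmed mean of M-values (TMM) over all 84 libraries so that all groups share 1 scale. The progenitor markers Kit, Cd34, Flt3 and Gata2 were each detected in every group. Against their labels, the MLL-ENL libraries numbered 73 at 10 weeks stood with the other population. The summed level of 6 granulocyte-monocyte genes was 21008 CPM in the library labelled HPC 73, against 2462 to 4172 CPM in the other 10-week HPC libraries of both genotypes. In the library labelled pGM 73 it was 3285 CPM, against 16342 to 29538 CPM in the other 10-week pGM libraries. The 10-week means of the pair and the fusion ratios that these libraries move are given with and without them.

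On the mouse reference GRCm38 with GENCODE vM21 annotation, Sva lies on the plus strand at chr6:42038394-42042851 and is protein coding, with 651 bases of exon. Sval2, Sval1 and Sval3 lie before it on the same strand, in that order. Gt(ROSA)26Sor lies on the minus strand of the same chromosome, 71 Mb away, at chr6:113067428-113077333, and is annotated as an antisense non-coding gene with 1695 bases of exon. Its last 846 bases are shared with the tRNA modification gene Thumpd3 on the opposite strand, and the chromatin gene Setd5 starts 31 bases beyond its other end. The sources used here name neither the genome build nor the strand setting of the deposited counts, so reads from the overlap with Thumpd3 cannot be told apart. These coordinates belong to the reference named.

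The sequence before Sva is shown because the transcript was present in every MLL-ENL library and nearly absent from controls, while related genes with a similar stretch before them had no count in either genotype. RefSeq's promoter table for GRCm38.p6 held an entry for Sva and for each of the 3 Sval genes, but not for Gt(ROSA)26Sor. The 250 bases before each annotated start follow, 5′ to 3′, for Sva (chr6:42038144-42038393, plus strand), Sval3 (chr6:41967890-41968139, plus strand) and Sval1 (chr6:41951378-41951627, plus strand). Capitals mark CTGCAAATAAAAGG, the longest run of letters shared by the 3 stretches and that of Sval2, which was looked for after the sequences were seen.
Sva: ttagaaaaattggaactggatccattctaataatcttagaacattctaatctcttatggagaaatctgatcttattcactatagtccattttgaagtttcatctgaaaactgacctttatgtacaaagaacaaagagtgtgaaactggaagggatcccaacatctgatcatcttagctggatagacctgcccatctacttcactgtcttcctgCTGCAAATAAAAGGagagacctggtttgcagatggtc
Sval3: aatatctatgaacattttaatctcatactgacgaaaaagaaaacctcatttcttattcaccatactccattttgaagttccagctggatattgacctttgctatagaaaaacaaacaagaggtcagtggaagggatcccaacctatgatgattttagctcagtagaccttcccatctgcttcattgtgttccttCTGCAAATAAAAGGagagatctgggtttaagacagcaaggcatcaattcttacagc
Sval1: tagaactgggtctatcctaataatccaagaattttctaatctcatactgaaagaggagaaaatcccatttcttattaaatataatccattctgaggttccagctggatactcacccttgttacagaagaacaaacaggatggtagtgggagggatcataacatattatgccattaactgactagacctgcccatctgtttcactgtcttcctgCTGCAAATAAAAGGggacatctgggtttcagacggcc
Aligned to each other, the stretch of Sva was identical to that of Sval3 at 85.7% of aligned bases, to Sval1 at 81% and to Sval2 at 78.3%. CTGCAAATAAAAGG began 37 bases before the start in Sva, Sval1 and Sval2 and 56 bases before it in Sval3, and with both strands searched 4 of 32851 promoter stretches of the same length held it (0.01%), which are these 4. The stretch of Sva held no CpG, and 7.9% of all promoter stretches held none, against a median of 6. Of the other motifs searched on both strands, the Sva stretch held CCAAT once (33.85% of promoters hold it). It held none of TATAAA, the GC box GGGCGG, the GATA motif AGATAA, the MEIS motif TGACAG and the HOX-PBX motif TGATTNAT, which 12.37%, 32.74%, 9.99%, 15.86% and 2.82% of promoters hold. These are matches of letters and say nothing about which factors bind there.

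Sva was nearly silent in control progenitors and present in every MLL-ENL library. Of 43 control libraries 36 had no Sva count at all, and the others shared 8 counts, with at most 2 in a library (0.19 CPM). All 41 MLL-ENL libraries had between 13 and 101 Sva counts, and the lowest, at 1.10 CPM, stood above the highest control. The 2 genotypes did not overlap in any of the 11 comparisons. The share of all genes without overlap was not counted, and the shares called, given next, are a different measure. Over all genes tested, edgeR called 7.61% in P0 HPC, 0.356% in P0 pGM, 0.121% in P0 GMP, 0.181% in 10-week HPC, 0.101% in 10-week pGM and 0.0268% in 10-week GMP. It called 0.0153% at 6 months, 0.0153% at 12 months, and 1%, 0.841% and 0.912% in MLL-ENL (x2) HPC, pGM and GMP. Since the member was chosen on these contrasts, nothing is read from its place among them.

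**Figure D1:**
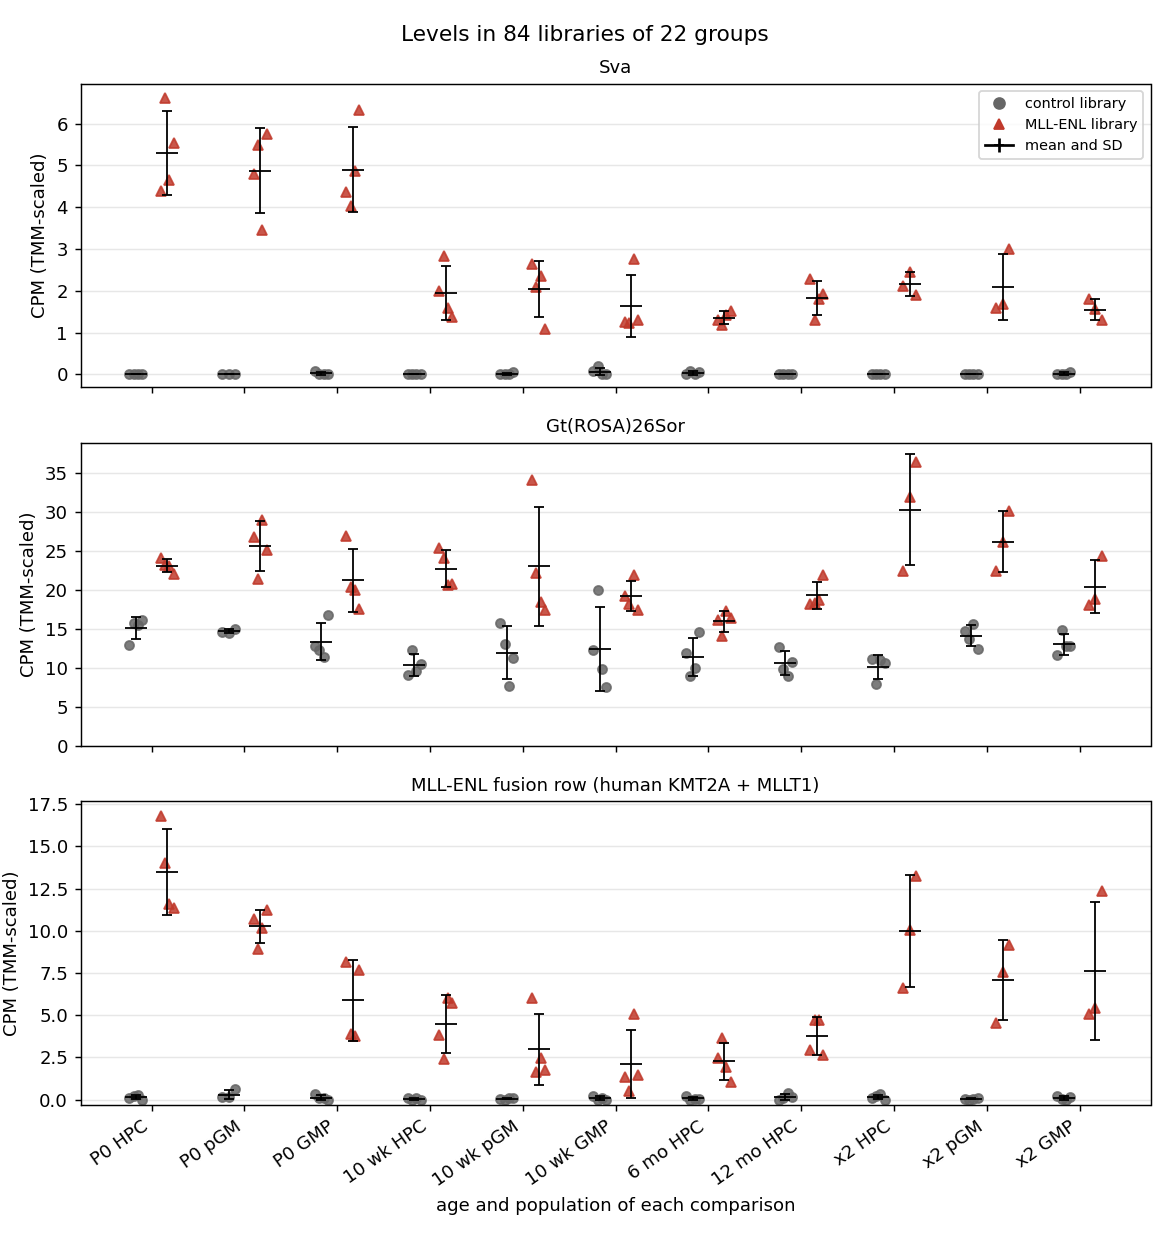
CPM of Sva, Gt(ROSA)26Sor and the fusion row in each of the 84 libraries, with controls as grey circles, MLL-ENL libraries as red triangles, and bars for the mean and SD of each group. Sva is at or near 0 in all controls and at 1.10 to 6.63 CPM in MLL-ENL libraries, with P0 highest, while Gt(ROSA)26Sor is present in every control.

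At P0, Sva stood higher than at any later age. The MLL-ENL HPC libraries had 4.40, 6.63, 4.66 and 5.55 CPM (5.31 ± 1.01, SD, n = 4), and the 4 controls had 0 counts. That is at least 103-fold higher than 3 counts over the control group, which is the limit that a count of 0 allows. In pGM the MLL-ENL libraries had 4.79, 5.49, 3.47 and 5.74 CPM (4.87 ± 1.02, SD, n = 4) against 3 controls at 0, or at least 69.9-fold. All 8 of these libraries lay far above every control. In GMP they had 4.37, 4.03, 4.87 and 6.33 CPM (4.90 ± 1.01, SD, n = 4), and 1 control had 1 count. The ratio of summed levels in GMP was 233, with an exact 95% counting interval of 41.5 to 9263 that covers counting error only. The means of the 3 P0 populations lay within 1 SD of each other.

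Beside these P0 values other cell types' markers also differed. In HPC the 4 mast cell markers summed to 42.8 to 110 CPM in MLL-ENL libraries against 757 to 2407 CPM in controls, with 4 of 4 called lower. The 6 granulocyte-monocyte genes summed to 834 to 1932 CPM against 2670 to 4507 CPM, the hepatocyte list to 22.8 to 33.8 against 14.6 to 22.4 CPM, and the 3 stroma markers to 1.12 to 1.69 against 0.284 to 0.513 CPM. Of the hepatocyte list only Afp was higher (log2 fold change 1.02), while Alb, Apoa1 and Ttr were lower (-0.59, -1.05 and -1.02). None of them was called. Of the stroma markers only Col1a2 was tested (2.29, no call), and 1 of the 3 had no count in MLL-ENL libraries. In P0 pGM the granulocyte-monocyte genes summed to 5245 to 11092 CPM against 11280 to 18673 CPM. In sorted bulk cells, fewer cells of a type and less RNA per cell cannot be told apart, and the part of these differences in the Sva level was not tested.

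At 10 weeks Sva was lower than at P0 in every population and still present in every MLL-ENL library. In HPC the libraries 73, 74, 78 and 81 had 1.99, 2.84, 1.58 and 1.38 CPM (1.95 ± 0.65, SD, n = 4) against controls at 0, at least 37.1-fold. In pGM they had 2.64, 2.09, 2.35 and 1.10 CPM (2.04 ± 0.67, SD, n = 4) against 1 count in 4 controls. In GMP they had 1.25, 1.24, 2.76 and 1.29 CPM (1.64 ± 0.75, SD, n = 4), with 3 counts in the controls and a ratio of summed levels of 24.1 (7.85 to 120, exact 95% counting interval). Library 78 stood apart in GMP, at more than the other 3, which lay close together. It was the shallowest library of the series and held 18 Sva counts against 13 to 16 in the others. In HPC the mast cell markers summed to 30.1 to 288 CPM against 25.3 to 29.7 CPM (30.1 to 56.3 CPM without the library labelled 73). Only Cpa3 was higher (log2 fold change 2.37), while Cma1, Tpsb2 and Mcpt4 were lower (-0.85, -0.58 and -1.07), and none was called. The part of these markers in the Sva level was not tested. Without the libraries numbered 73 the Sva mean was 1.94 ± 0.79 CPM (SD, n = 3) in HPC and 1.85 ± 0.66 CPM in pGM.

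In the older mice, which had been given doxycycline, HPC held Sva at levels like those at 10 weeks. At 6 months the MLL-ENL libraries had 1.17, 1.42, 1.30 and 1.52 CPM (1.35 ± 0.15, SD, n = 4), with 2 counts among the controls and a ratio of 54.0 (14.5 to 454, exact 95% counting interval). At 12 months they had 2.28, 1.31, 1.92 and 1.80 CPM (1.83 ± 0.40, SD, n = 4) against controls at 0, at least 32.8-fold. The 2 ages overlapped in their Sva levels. Both ages had doxycycline and the younger mice none, so age and induction scheme cannot be told apart here.

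The MLL-ENL (x2) mice did not stand apart from the other 10-week MLL-ENL mice in Sva. In HPC, animals 5293, 5897 and 5900 had 2.12, 2.45 and 1.89 CPM (2.16 ± 0.28, SD, n = 3) against controls at 0, at least 47.8-fold. In pGM they had 1.59, 1.68 and 2.99 CPM (2.09 ± 0.78, SD, n = 3), at least 51.6-fold. In GMP they had 1.79, 1.56 and 1.29 CPM (1.55 ± 0.25, SD, n = 3) against 1 control count. Set against the 10-week MLL-ENL means, these were 1.11, 1.02 and 0.946 times as high in HPC, pGM and GMP. For the fusion row the same ratios were 2.22, 2.38 and 3.63. Without the library labelled pGM 73 the fusion ratio in pGM was 3.64, and without GMP 78 that in GMP was 6.86. The 2 sets are separate groups of libraries, so a difference between sets and a difference between genotypes cannot be told apart.

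Ranked by mean level, Sva fell into an upper and a lower range with a gap between them. The 12 P0 libraries had 3.47 to 6.63 CPM and the 29 later libraries 1.10 to 2.99 CPM, so that all 12 lay above all 29. The mean in MLL-ENL cells at P0 was 2.72 times that at 10 weeks in HPC, 2.38 times in pGM and 2.99 times in GMP. P0 cells came from liver and 10-week cells from bone marrow, so age and tissue cannot be told apart. From high to low the groups were P0 HPC, P0 GMP, P0 pGM, then x2 HPC, x2 pGM, 10-week pGM, 10-week HPC, 12-month HPC, 10-week GMP, x2 GMP and 6-month HPC. Each of these groups overlapped its next lower neighbour except at the step from P0 pGM to x2 HPC.

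Other genes of the secretions that Sva is known from had no or few counts in both genotypes. Of 19 genes named for seminal fluid and salivary secretion, 18 were in the table. Pip, Sval1, Sval2, Sval3, Svs4, Svs5, Svs6, Svs3a and the defensin Defb50 had 0 counts in all 84 libraries, which allows at most 3 counts over them. Svs1, Svs2 and Svs3b, further seminal vesicle secretory genes, each had 3 or fewer counts over all libraries. The transglutaminase Tgm4 had 61 counts in controls and 70 in MLL-ENL libraries, the protease inhibitor gene Wfdc3 67 and 90, Crisp1 21 and 29, and Wfdc15a 13 and 6. None of the 18 reached the level needed for testing. The separate list of 6 male germ cell and seminal vesicle markers summed to at most 0.171 CPM in any library, in a P0 GMP MLL-ENL library.

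Gt(ROSA)26Sor, unlike Sva, was transcribed in every control and stood higher in MLL-ENL cells. Controls held 7.61 to 20.1 CPM and MLL-ENL libraries 14.2 to 36.5 CPM. The 2 genotypes did not overlap in 9 of 11 comparisons. The share of all genes without overlap was not counted. The shares of all genes called, given above for the same comparisons, are a different measure, so nothing is read from the 9 of 11. They overlapped in 10-week GMP and in 6-month HPC. The ratio of means ran from 1.41 to 2.98. Per kilobase of exon, the mean level in P0 HPC of MLL-ENL mice was 13.7 CPM for Gt(ROSA)26Sor and 8.15 CPM for Sva, and at 10 weeks 13.4 and 2.99 CPM.

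At P0, MLL-ENL HPC had 24.2, 23.2, 23.1 and 22.1 CPM of Gt(ROSA)26Sor (23.1 ± 0.865, SD, n = 4) against 13.0, 15.8, 15.6 and 16.1 CPM in controls (15.1 ± 1.44, SD, n = 4). The ratio of means was 1.53, and the log2 fold change of the count model was 0.57 ± 0.21 (SE). In pGM the values were 26.8, 21.5, 29.1 and 25.1 CPM against 14.7, 14.5 and 15.0 CPM, a ratio of 1.74. The spread among the 3 pGM controls was small beside this gap. In GMP they were 27.0, 20.4, 19.997 and 17.6 CPM against 12.9, 12.3, 11.4 and 16.8 CPM, a ratio of 1.59. Here the lowest MLL-ENL library lay just above the highest control. Without TMM scaling the P0 HPC log2 fold change was 0.78, a setting that moved the median of all genes in that comparison from -0.03 to 0.17.

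At 10 weeks, HPC had 25.4, 24.1, 20.7 and 20.8 CPM in MLL-ENL libraries against 9.15, 12.2, 9.57 and 10.6 CPM in controls, a ratio of 2.19 (log2 fold change 1.14 ± 0.21, SE). In pGM the values were 34.1, 22.3, 18.5 and 17.5 CPM against 15.8, 13.1, 7.73 and 11.3 CPM, a ratio of 1.93. The highest of these is the library labelled pGM 73, which also had the highest fusion level of its group, 6.03 CPM against 1.64 to 2.44 CPM. Without it the pGM mean was 19.4 ± 2.53 CPM (SD, n = 3) in place of 23.1 ± 7.65, and the HPC mean without its counterpart was 21.9 ± 1.96 CPM. In GMP they were 19.3, 18.2, 21.95 and 17.5 CPM against 12.3, 20.1, 9.93 and 7.61 CPM, a ratio of 1.54. Control 80 of that population lay inside the MLL-ENL range, and the others below it.

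In the older mice the gap at 6 months was the smallest of the series. At that age MLL-ENL HPC had 14.2, 17.3, 16.2 and 16.4 CPM against 11.9, 9.01, 9.97 and 14.6 CPM, a ratio of 1.41, with the lowest MLL-ENL library below the highest control. At 12 months they had 18.3, 18.4, 21.9 and 18.8 CPM against 9.92, 12.7, 9.02 and 10.8 CPM, a ratio of 1.82, and the groups were apart. Whether the 2 ages differ in this gap was not tested, since the gene was chosen for it.

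The widest gap was in HPC of the MLL-ENL (x2) mice. Animals 5293, 5897 and 5900 had 22.5, 32.0 and 36.5 CPM against 11.1, 7.90, 11 and 10.6 CPM, a ratio of 2.98 (log2 fold change 1.58 ± 0.18, SE). In pGM they had 22.4, 26.2 and 30.2 CPM against 14.8, 13.7, 15.6 and 12.5 CPM, a ratio of 1.86. In GMP they had 18.1, 18.9 and 24.3 CPM against 11.6, 14.9, 12.8 and 12.8 CPM, a ratio of 1.57. Animal 5293 was the lowest and animal 5900 the highest in all 3 populations, and the fusion row had the same order of animals in each. In these mice the sum of the 5 erythroid markers also stood apart between genotypes, at 131 to 352 CPM against 30.9 to 93.7 CPM in HPC and 58.2 to 156 against 20.2 to 55.7 CPM in pGM. Of these markers only Hbb-bt was called, higher in both (log2 fold change 2.41 and 2.82). Hba-a1 and Hba-a2 were lower in both (-0.10 and -0.20 in HPC, -3.46 and -3.87 in pGM). In HPC the granulocyte-monocyte genes summed to 4984 to 6730 against 3369 to 4520 CPM and the mast cell markers to 9.76 to 11.7 against 16.2 to 26.6 CPM. No granulocyte-monocyte gene was called there, and Prtn3 and Cebpe were lower (-0.27 and -0.20). Of the 3 mast cell markers tested, Tpsb2 was called lower (-6.82, edgeR adjusted p = 0.048). Cma1 and Cpa3 were lower without a call (-7.85 and -0.48). In the MLL-ENL (x2) HPC libraries 2 of the 4 mast cell markers had no count. The part of these markers in the Gt(ROSA)26Sor level was not tested.

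In MLL-ENL cells Gt(ROSA)26Sor had nearly the same level at P0 and at 10 weeks, while Sva did not. The P0 mean was 1.02 times the 10-week mean in HPC, 1.11 times in pGM and 1.11 times in GMP. From high to low the MLL-ENL groups ran from x2 HPC, at 30.3 ± 7.13 CPM (SD, n = 3), to 6-month HPC, at 16.02 ± 1.34 CPM (SD, n = 4). Each overlapped its next lower neighbour except 10-week GMP, whose lowest library lay just above the highest 6-month library. The highest control means were those of P0 HPC (15.1 CPM) and P0 pGM (14.7 CPM), and the lowest was that of HPC in the x2 set, at 10.2 ± 1.52 CPM (SD, n = 4).

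Between control groups, which the choice of the gene did not use, no change of Gt(ROSA)26Sor passed the test. With edgeR's quasi-likelihood test and Benjamini-Hochberg adjustment over all genes, 0 of 8 control steps were called, 2 had an unadjusted p under 0.05, and DESeq2 called 0. Over all genes the same test called 7.7% from HPC to pGM and 13.9% from pGM to GMP at P0, 6.21% and 15.7% for these steps at 10 weeks, and 12.2% and 22.6% in the x2 set. It called 16.3% in HPC from P0 to 10 weeks and 0.559% from 6 to 12 months. The lowest adjusted p values were those of HPC at 10 weeks against P0 (log2 fold change -0.55 ± 0.21, SE, adjusted p = 0.071) and of pGM against HPC in the x2 set (0.49 ± 0.17, adjusted p = 0.070). The latter was called when libraries of the same number were kept as a block (0.49, adjusted p = 0.025), and the former in 1 fit over all 84 libraries (-0.55, adjusted p = 0.034). The other 6 steps lay between -0.14 and 0.22, with adjusted p from 0.65 to 0.97. The fits took all libraries of a set, and the step from P0 to 10 weeks also goes from liver to bone marrow.

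The fusion row followed the labels. It had 76 counts over the 43 controls, 12 of which were at 0, and 3940 over the 41 MLL-ENL libraries, and the genotypes were apart in all 11 comparisons. In P0 HPC the MLL-ENL libraries had 16.8, 14.0, 11.6 and 11.4 CPM against 0 to 0.25 CPM. The lowest MLL-ENL library, GMP 74 at 10 weeks, had 6 counts (0.53 CPM) and lay below the highest control of the series, P0 pGM control 5 at 0.614 CPM. Its Sva level was 1.24 CPM, close to 1.25 and 1.29 CPM in libraries 73 and 81 of its group and below 2.76 CPM in library 78.

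At P0 and at 10 weeks the fusion mean differed more between populations than the Sva mean did. In the MLL-ENL (x2) mice this depended on the populations compared. At P0 the fusion mean in HPC was 2.29 times that in GMP, and the Sva mean was 1.08 times as high. At 10 weeks these ratios were 2.13 and 1.19. Library GMP 78 had 5.07 CPM of fusion against 0.53 to 1.46 CPM in the other GMP libraries, and without it the fusion ratio at 10 weeks was 4.03. In the x2 mice the fusion ratio of HPC to GMP was 1.31 and that of Sva 1.39. With 1 library left out they ran from 1.09 to 1.89 and from 1.29 to 1.51. For pGM over GMP the fusion and Sva ratios were 0.927 and 1.35, and for HPC over pGM 1.41 and 1.03. These differences between ratios were not tested. Both Sva and fusion were higher at P0, with fusion means 3.004, 3.46 and 2.80 times those at 10 weeks in HPC, pGM and GMP. Without the library labelled pGM 73 the pGM ratio was 5.28, and without GMP 78 the GMP ratio was 5.28. Sva per fusion read, as a ratio of group means, was 0.39 in HPC, 0.47 in pGM and 0.83 in GMP at P0, and 0.43, 0.69 and 0.78 at 10 weeks. At 10 weeks the pGM value was 0.948 without the library labelled 73. It was 0.60 at 6 months and 0.49 at 12 months. In the MLL-ENL (x2) mice it was 0.22, 0.30 and 0.20, below the ratio of means of every other group. The last was 0.318 without animal 5900. With 1 library left out the 10-week HPC value fell as low as 0.318, and some single libraries of other groups lay within the x2 range.

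**Figure D2:**
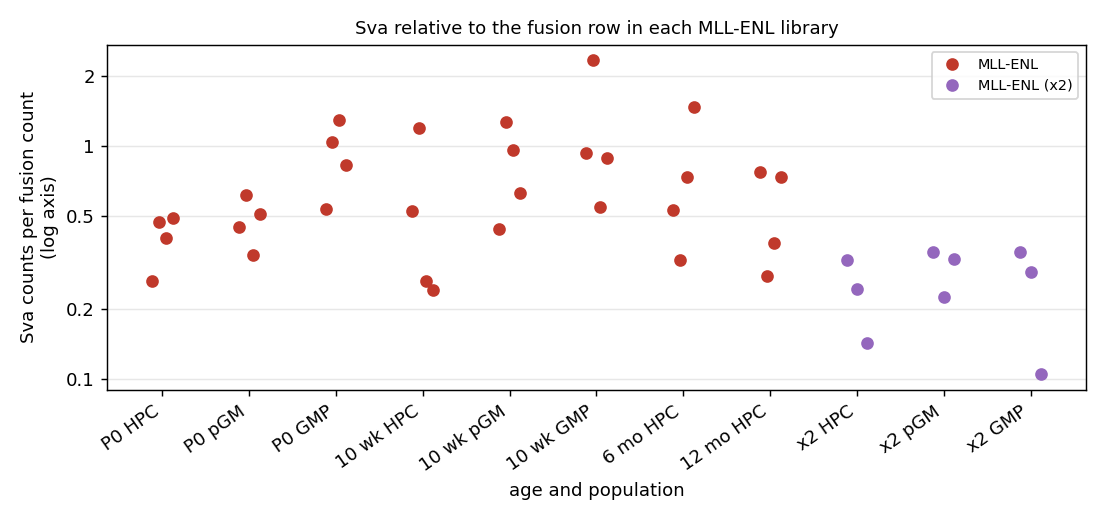
Sva counts per fusion count in each MLL-ENL library (log axis), by age and population, with MLL-ENL libraries in red and MLL-ENL (x2) libraries in purple. The 9 MLL-ENL (x2) libraries lie between 0.105 and 0.352, and single 10-week libraries reach 2.33. Some libraries of other groups lie in the x2 range, such as 10-week HPC 81 at 0.240 and P0 HPC 2 at 0.261.

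Library by library the ratio varied widely where fusion counts were few. In 10-week GMP it ran from 0.545 to 2.33, and in 6-month HPC from 0.323 to 1.47. Within MLL-ENL groups the order of the libraries in Sva was little related to their order in fusion level. Of 57 pairs of libraries from the same group, 27 (47.4%) had the same order in Sva and fusion, 35 (61.4%) in Gt(ROSA)26Sor and fusion, and 29 (50.9%) in Sva and Gt(ROSA)26Sor. The library with the highest fusion level was also the highest in Gt(ROSA)26Sor in 7 of 11 groups and in Sva in 4. Pairs within a group share libraries, and these counts are a description.

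**Figure D3:**
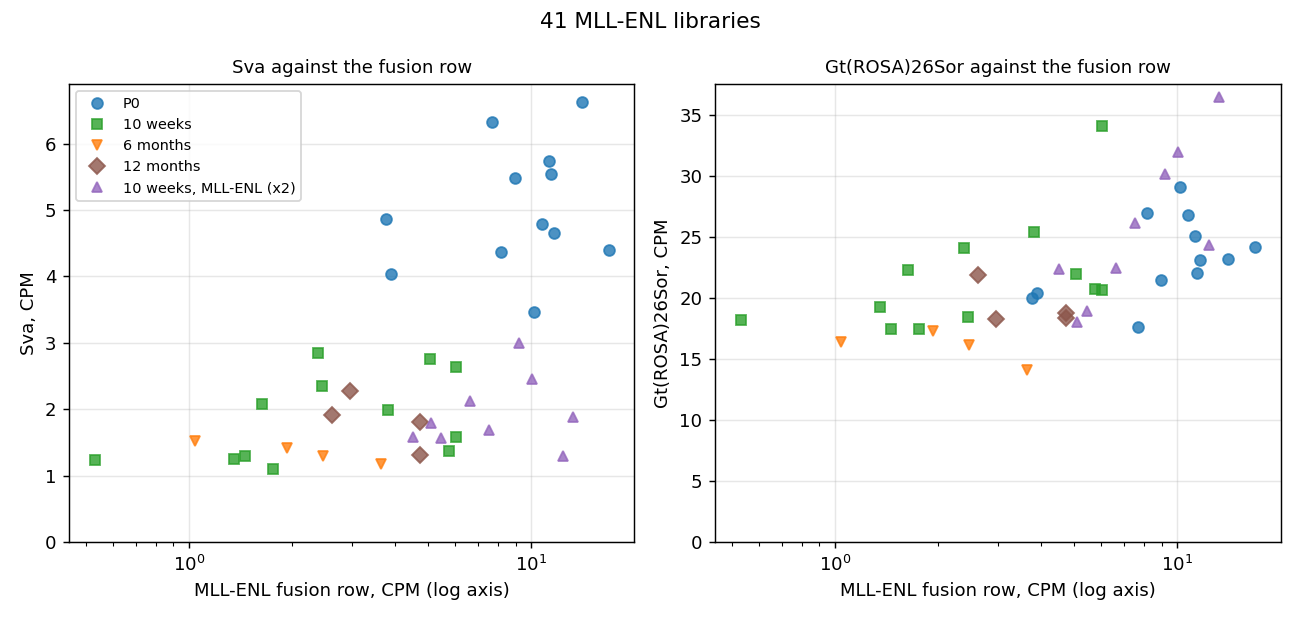
Sva (left) and Gt(ROSA)26Sor (right) in CPM against the fusion row in CPM (log axis) in the 41 MLL-ENL libraries, with symbols for age and set. P0 libraries form the upper cloud in Sva, at 3.47 CPM or more, over a wide range of fusion levels, while in Gt(ROSA)26Sor the ages share 1 range.

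Over the 11 MLL-ENL group means the Pearson r of log2 CPM was 0.66 between Sva and the fusion row, 0.70 between Gt(ROSA)26Sor and the fusion row and 0.40 between the 2 genes. The ratio of Gt(ROSA)26Sor to its control had an r of 0.28 with the fusion row and -0.09 with Sva. Without the libraries labelled 73 these were 0.652, 0.771 and 0.445. Libraries of 1 age that carry the same number share that label, so the groups are not independent and no p is given. Over all 22 groups, where the gap between genotypes carries most of the variation, the fusion row was the row most like each gene among 15547 ranked, with an r of 0.971 for Sva and 0.930 for Gt(ROSA)26Sor. Next for Sva came Skida1 (0.712), the endothelin receptor Ednra (0.702), 2200002D01Rik (0.69) and the TGF-beta receptor Tgfbr1 (0.69). For Gt(ROSA)26Sor the next were the homeobox gene Hoxa6 (0.80), the interleukin-9 receptor Il9r (0.764), Skida1 (0.761) and Rhbdf1 (0.742). The r between Sva and Gt(ROSA)26Sor was 0.896, above that of each of these genes with Sva. Hoxa6 is the one gene among them on the same chromosome as the pair. The pair was chosen for the gap between genotypes, which the fusion row shares, so nothing is read from these ranks and r values over 22 groups.

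Genes around each locus were tested because the choice of the pair did not use them. The window reached 1 Mb to either side. Around Sva it held 126 annotated genes, among them the segments of the T cell receptor beta locus, of which 94 were in the table and 10 to 19 were tested in each comparison. Around Gt(ROSA)26Sor it held 76, of which 53 were in the table and 25 or 26 tested. Over the 11 comparisons, 8 of 185 tests around Sva were called (4.32%) and 1 of 281 around Gt(ROSA)26Sor (0.356%), against 1.04% of 158303 tests over all genes (2.7% in the 3 comparisons at P0 and 0.919% in those of the x2 set). The genes of a window recur in every comparison, so these tests are not independent.

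Close to each locus no tested gene was called with edgeR's quasi-likelihood test. Around Sva only 2 genes within 250 kb were tested, both downstream and at 203 kb or more. Over the comparisons there were 22 tests within 250 kb of Sva and 72 within 250 kb of Gt(ROSA)26Sor, with 0 calls at both. At an unadjusted p under 0.05 there were 0 and 1, a threshold at which the share of all genes was not counted. DESeq2 called 0 and 0, with no adjusted p for 2 of the tests around Gt(ROSA)26Sor. The nearest tested genes downstream of Sva were the glutathione transferase Gstk1 (203 kb), with log2 fold changes of -0.37 to 0.34, and the apoptotic protease Casp2 (222 kb), with -0.15 to 0.21 and adjusted p of 0.82 or more. Next came the adhesion protein Zyx (307 kb), at -0.65 to 0.45. On the other side the blood group protein Kel (334 kb) ran from -3.18 to 3.93 with no call (lowest adjusted p = 0.14), and the Eph receptor Ephb6 (418 kb) from -0.68 to 0.44. Thumpd3, which shares bases with Gt(ROSA)26Sor, lay between -0.27 and 0.21 over the 11 comparisons (lowest adjusted p = 0.31). Setd5, at its other end, lay between -0.29 and 0.35, and the GTPase regulator Srgap3 (120 kb) between -0.12 and 0.44. The phosphatase Mtmr14 (160.5 kb) lay between -0.53 and 0.40, and Cpne9 (205 kb) was tested in 6 comparisons without a call.

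**Figure D4:**
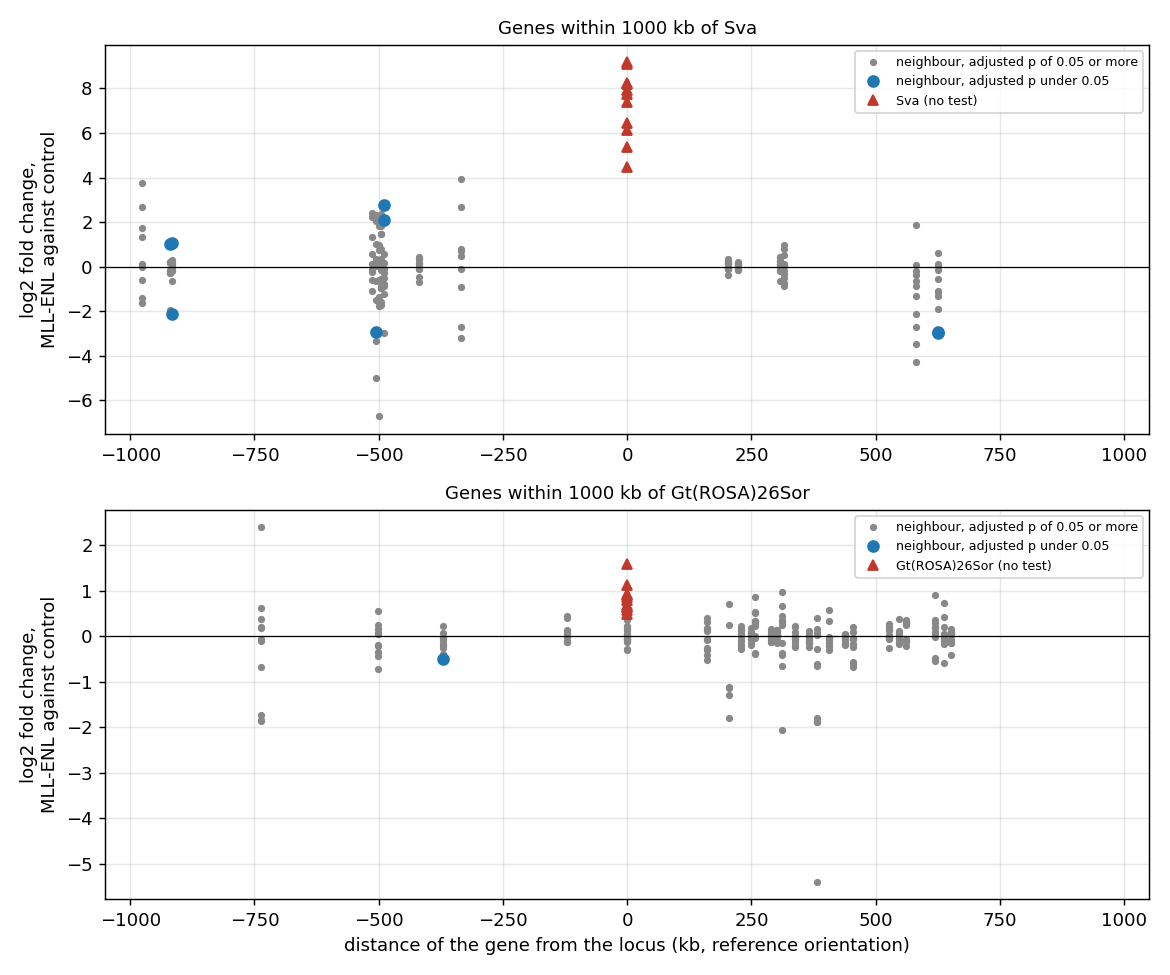
Log2 fold change (MLL-ENL against control) of each gene tested within 1000 kb of Sva (top) and of Gt(ROSA)26Sor (bottom) by its distance in kb, 1 point per gene and comparison, with called genes in blue and the member itself, which has no test, as red triangles at 0. The genes at 203 and 222 kb from Sva and at 0 to 120 kb from Gt(ROSA)26Sor lie near a log2 fold change of 0 in all comparisons.

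The calls around Sva were T cell receptor segments and 1 channel regulator. In P0 HPC, where 7.61% of all genes were called, 3 of 19 were: the variable segments Trbv12-2 (log2 fold change 1.02 ± 0.32, adjusted p = 0.045) and Trbv13-2 (1.07 ± 0.33, adjusted p = 0.037), and the joining segment Trbj1-1 (-2.92 ± 0.90, adjusted p = 0.037). Trbv13-2 stood at 6.54 to 9.13 CPM in MLL-ENL libraries against 2.99 to 3.88 CPM in controls. Trbj1-1 stood at 0 to 0.238 against 0.0854 to 1.18 CPM, which is a few counts in each library, and the groups overlapped. Leaving out 1 library of P0 HPC left 0 calls for controls 2 and 4 and for MLL-ENL libraries 3, 4 and 5, and 1 call for controls 3 and 5. The T cell receptor segments are short and similar in sequence, so reads may be split between them.

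In the MLL-ENL (x2) mice the constant segment Trbc2 (490 kb) rose in HPC and in pGM. It stood at 10.9 to 35.8 CPM against 2.96 to 7.92 CPM in HPC (log2 fold change 2.09 ± 0.43, adjusted p = 0.016, with 1% of all genes called). In pGM it stood at 8.20 to 20.4 against 1.61 to 3.64 CPM (2.75 ± 0.45, adjusted p = 0.0020, with 0.841% called). Beside this, the 5 T cell markers, of which Trbc2 is one, summed to 14.1 to 36.3 against 5.24 to 8.36 CPM in HPC, and to 17.3 to 30.9 against 5.84 to 10.3 CPM in pGM. The other 4, Cd3e, Cd3d, Cd3g and Trbc1, summed to 0.472 to 3.25 against 0.443 to 2.27 CPM in HPC and to 4.61 to 10.5 against 3.26 to 8.68 CPM in pGM, and those ranges overlapped. Of these 4, Cd3e was not tested and none of the others was called. Cd3g and Trbc1 were higher (log2 fold change 1.93 and 0.97 in HPC, 1.66 and 0.76 in pGM). Cd3d was lower (-3.36 and -1.10). No T cell marker was at 0 throughout these groups.

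Tcaf1, a regulator of the cold-sensing channel TRPM8 that lies 625 kb from Sva, fell in the same mice. It stood at 0.0497 to 0.976 CPM against 3.03 to 4.39 CPM in pGM (log2 fold change -2.99 ± 0.60, adjusted p = 0.012) and at 0.0579 to 0.482 against 1.26 to 2.40 CPM in GMP (-2.92 ± 0.67, adjusted p = 0.034). Trbv13-2 fell in GMP (-2.10 ± 0.45, adjusted p = 0.022), where 0.912% of all genes were called and its groups overlapped. These 5 calls became 3 without GMP control 4892 or 4894 or without GMP animal 5897 or 5900. Fitted on the compared groups alone there was 1. Trbc2 in HPC lost its call without control 4892 or 4894 or animal 5897 or 5900. Tcaf1 lost it in pGM without animal 5293 or 5897, and in GMP without control 4892, 4894 or 5899 or animal 5897 or 5900. Trbc2 in pGM kept its call in 7 of 7 settings with 1 library left out. In GMP the median log2 fold change of the 17 genes tested around Sva was -1.59, against 0.01 over all genes, and in HPC and pGM it was 0.03 and -0.08. Beside this, the 4 T cell markers other than Trbc2 summed to 0 to 0.405 CPM in GMP of MLL-ENL (x2) mice against 0.379 to 4.01 CPM in controls, with Trbc1 at 0 counts in all 3. Cd3e was not among the genes tested, and none of the others was called. The part of these markers in the GMP values was not tested.

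Around Gt(ROSA)26Sor the only call was Rad18, a ubiquitin ligase of DNA damage tolerance, 371 kb away. It fell in P0 HPC (log2 fold change -0.51 ± 0.14, adjusted p = 0.019), at 38.3 to 70.6 CPM against 69.3 to 84.7 CPM, ranges that overlapped. The call was lost on leaving out control 4 or MLL-ENL library 2, 4 or 5 (adjusted p 0.056 to 0.20). Another gene was called without control 4, and a second one without MLL-ENL library 3. With the library numbers as a block, which control and MLL-ENL libraries share at P0, the count at P0 was 3. At 10 weeks and in the older mice 0 of the tests around either gene were called, against 0.103% and 0.0153% of all tests. At these ages 7 of 77 tests around Sva and 7 of 128 around Gt(ROSA)26Sor had an unadjusted p under 0.05. The share of all genes under that unadjusted threshold was not counted, so nothing is read from these counts. DESeq2 called 0 around each gene.

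Other loci where transgenes are often placed were compared in the same way. The metabolic gene Hprt, the signalling gene Vav1 and the actin gene Actb were tested in all 11 comparisons with no call. The collagen gene Col1a1 had 56 counts over all controls and 163 over all MLL-ENL libraries, passed the filter only in the x2 set, and was called in HPC there (log2 fold change 3.99 ± 0.93, adjusted p = 0.038). In pGM it had 3.04 (adjusted p = 0.16) and in GMP 2.37 (adjusted p = 0.33). Igs2 was not among the rows analysed here. Col1a1 is also a gene of stromal cells. Beside its call in HPC, the 3 stroma markers summed to 0.452 to 1.52 CPM in MLL-ENL (x2) libraries against 0.346 to 2.60 CPM in controls, and Col1a2 was at -0.75 (adjusted p = 0.92).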

How the data were processed

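Gene-level read counts of 84 libraries were used as the authors deposited them. The submitters' processing notes name STAR, Subread and featureCounts 1.4.5, with no genome build, and the labels' protocols name an RNA micro kit and a SMART cDNA kit. No row without a gene name was present. The fusion row equals the sum of 2 human rows, which were dropped. The members and all lists were chosen with earlier results of these data known.

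Groups came from the labels. Counts were tested with edgeR 4.0.16 (R 4.3.3): TMM scaling, filterByExpr, 1 mean per group, quasi-likelihood F test, Benjamini-Hochberg adjustment over all genes tested, and a threshold of 0.05. P0 with 10 weeks (47 libraries, 14900 genes), 6 with 12 months (16, 13060) and the x2 set (21, 14261) were fitted separately. On simulated data the fit recovered 31% of 2-fold and 71% of 4-fold changes in P0 HPC, 63% and 95% at 12 months, and 41% and 86% in x2 HPC. Of 41388 mouse rows 40254 had a GENCODE vM21 position. DESeq2 1.42.0 was an alternative, with another scaling, no filter, other sets of libraries, other windows and each library left out.

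Named genes were the pair, the fusion rows, the 3 tested neighbours nearest on either side, called neighbours, and the genes with group means most like each member. Same-numbered libraries of different groups were checked for pairing by the correlation of their deviations from the group means. It was over 0.1 for every pair between the genotypes in P0 pGM (0.161 to 0.419) and P0 GMP (0.204 to 0.523) and in all control steps between populations except P0 pGM against HPC (lowest 0.07). In P0 HPC 2 of 4 pairs were over 0.1 between genotypes.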

Additional observations from a re-analysis of the deposited data

Results flagged for a closer look

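A library was set apart where its gap to the nearest other library of its group exceeded Dixon's 95% critical value. In 54 sets of values, 6 such libraries were found. The 54 include sets with every library at 0, which could flag none, so no chance rate is set beside the 6. Of the 6 libraries, 3 are single Sva counts in controls whose other libraries were at 0, a pattern that always exceeds the critical value. They are P0 GMP control 2 at 0.0824 CPM, 10-week pGM control 88 at 0.0531 CPM and GMP control 5899 of the x2 set at 0.0651 CPM. The 10-week GMP MLL-ENL library 78 had 2.76 CPM of Sva, against 1.24 to 1.29 CPM in the others, and it also had the highest fusion level of its group, 5.07 CPM. For Gt(ROSA)26Sor, 12-month MLL-ENL library 9431 had 21.9 CPM against 18.3 to 18.8 CPM, with the lowest fusion level of its group (2.62 CPM). Control 4894 of HPC in the x2 set had 7.90 CPM against 10.6 to 11.1 CPM.

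Of 77 differences between comparisons tested for the called neighbours, 1 passed: the joining segment Trbj1-1 had a log2 fold change of -2.92 in P0 HPC and 2.06 in 10-week HPC, a difference of -4.99 (SE 1.32, adjusted p = 0.042). The genes had been chosen as called in 1 of these comparisons. Levels were at most 1.18 CPM in the P0 libraries, and the library labelled 73 held 13 of the 20 counts of 10-week MLL-ENL HPC. Without it the difference was -3.76 (adjusted p = 0.23). Chosen after seeing the data, leaving out each of the 16 HPC libraries in turn kept the call in 8. It was lost without P0 controls 2 and 4, P0 MLL-ENL libraries 3, 4 and 5, 10-week controls 76 and 87, and library 73.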

How the results depend on the processing

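Sva kept its direction and moved by less than 1 SD in every alternative run, and so did Gt(ROSA)26Sor except in P0 HPC, at 0.78 without TMM scaling against 0.57. The counts of called neighbours were less stable. Around Sva the 3 calls at P0 became 0 with no filter on low counts, 0 within 250 kb and 6 within 5 Mb, and ranged from 0 to 3 with 1 library left out. The 5 calls of the x2 set became 1 with the compared groups alone, 0 within 250 kb and 7 with no filter, DESeq2 or 1 fit of all libraries, and ranged from 3 to 6 with 1 library left out. Around Gt(ROSA)26Sor the 1 call at P0 became 3 with RLE scaling, 0 with no filter, 4 with DESeq2, 2 with the compared groups alone, 3 in 1 fit of all 84 libraries, 3 with the replicate block, 0 within 250 kb and 4 within 5 Mb, and ranged from 0 to 2 with 1 library left out. Its 0 calls at 10 weeks became 1 within 5 Mb. Its 0 calls in the x2 set became 1 with no filter, DESeq2, the compared groups alone, 1 fit of all libraries and 5 Mb, and 1 without HPC control 5898. The cause was not tested, other than that a narrower window holds fewer genes. In controls, the Gt(ROSA)26Sor step from P0 to 10 weeks in HPC was -0.55 (adjusted p = 0.034) in 1 fit of all libraries, and the x2 step from HPC to pGM 0.49 (adjusted p = 0.025) with the replicate block. The block changed no other call of these steps. Between genotypes the block could be fitted at P0 only, as the other comparisons share no numbers. Trbc2 in x2 pGM was called in 12 of 12 alternatives (adjusted p 3e-07 to 0.014), Tcaf1 in 9 of 12 in pGM and 6 of 12 in GMP, Trbc2 in x2 HPC in 7 of 12, Rad18 in 8 of 14 and Trbv12-2 in 4 of 14. Depth sets a limit for Sva, since a control group at 0 counts cannot show a level below 3 counts over its group.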

Other observations

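The 2 human rows behind the fusion level were unequal. Over the 41 MLL-ENL libraries human KMT2A had 3747 counts and was above 0 in all of them, while human MLLT1 had 193 counts and was at 0 in 13 libraries, with a highest level of 0.896 CPM. The mouse genes Kmt2a and Mllt1 were not called in any of the 11 comparisons, with log2 fold changes of -0.23 to 0.39 and -0.47 to 0.40.

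Within 5 Mb, 6 of 54 genes tested around Sva (11.1%) and 4 of 61 around Gt(ROSA)26Sor (6.56%) were called in P0 HPC, against 7.61% of all genes. Over the 11 comparisons the shares were 1.96% and 0.888%, against 1.04%. Of the called genes beyond 1 Mb, Rassf4 fell in P0 HPC (-1.90 ± 0.32, adjusted p = 0.00015) and kept its call in 8 of 8 settings with 1 HPC library left out. The myeloid receptor Clec5a also fell there (-2.42 ± 0.65, adjusted p = 0.015), a call lost without MLL-ENL library 5. Adck2 rose (0.96 ± 0.26, adjusted p = 0.018), a call lost without control 3 or 4. These settings and the 3 genes were chosen after seeing the data.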
